A study of Mus musculus with 8 samples.

Results

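The co-inhibitory ligands form a set of 10 genes, taken by their symbols from a count table of 25477 genes: Cd274, Pdcd1lg2, Cd80, Cd86, Cd276, Vsir, Lgals9, Havcr2, Tnfrsf14 and Nectin2. All 10 were found, and 9 of them held enough reads to be tested, with Cd80 too low. Polyadenylated RNA had been sequenced from 8 mouse retina samples, 4 with the genotype PD-L1 knockout and 4 with the genotype control, called WT in their titles. The titles of all 8 carry CNV, for choroidal neovascularization, the growth of vessels out of the choroid toward the retina, so no group without CNV is included. The strain, age and sex of the mice, the design of the knockout allele, how the neovascularization was induced and whether a sample is 1 animal are not stated in the labels. The p-values set the difference between the groups against the scatter of samples within a group, and that scatter may therefore be technical.

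Co-inhibitory ligands sit on the surface of antigen-presenting and tissue cells and restrain lymphocytes or myeloid cells that carry the matching receptor. PD-L1 (Cd274) and PD-L2 (Pdcd1lg2) bind PD-1, whose cytoplasmic tail recruits phosphatases that dampen antigen receptor signalling. In the retina, a tissue kept under tight immune restraint, microglia and pigment epithelium are known sources of such ligands. The set is not made of inhibitory ligands alone: Havcr2 encodes a receptor, TIM-3, and CD80 and CD86 also drive activation through CD28. In the annotation deposited with the counts, 6 of the 10 genes carried the term negative regulation of T cell proliferation, which 48 of 19435 annotated genes carried, and the same number carried its counterpart, positive regulation of T cell proliferation.

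Cd274 (Entrez 60533, mm10 chromosome 19, 29362107 to 29388095) and Pdcd1lg2 (Entrez 58205, chromosome 19, 29410919 to 29472927) lie on the same strand with 22.8 kb between them, whereas Lgals9 (Entrez 16859, chromosome 11, 78962979 to 78984924) lies elsewhere. These 3 genes passed the test described further on, and the 250 bases before a RefSeq transcription start of each (GRCm38.p6, gene strand) are shown because interferon-responsive factors are known to act at such promoters. RefSeq windows were matched for 9 of the 10 genes, all but Cd86. The windows of Cd274, Cd80 and Tnfrsf14 lie inside their gene spans, so bases before the outer start of these genes were not searched. Capitals mark matches to the interferon-stimulated response element, GAAANNGAAA on either strand. The gamma-activated sequence TTCNNNGAA was searched in the same way, and no match of one overlapped a match of the other in these windows.
Cd274, chr19:29367188-29367437, plus strand: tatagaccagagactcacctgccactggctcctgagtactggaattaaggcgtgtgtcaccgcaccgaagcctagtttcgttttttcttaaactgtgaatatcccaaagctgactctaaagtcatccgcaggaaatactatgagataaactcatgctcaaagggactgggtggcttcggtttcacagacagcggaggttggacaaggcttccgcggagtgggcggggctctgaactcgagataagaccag
Pdcd1lg2, chr19:29410669-29410918, plus strand: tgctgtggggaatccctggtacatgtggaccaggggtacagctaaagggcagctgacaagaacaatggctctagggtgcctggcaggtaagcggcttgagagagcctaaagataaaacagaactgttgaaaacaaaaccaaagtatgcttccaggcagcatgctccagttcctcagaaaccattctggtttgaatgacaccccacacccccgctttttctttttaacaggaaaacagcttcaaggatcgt
Lgals9, chr11:78984925-78985174, minus strand: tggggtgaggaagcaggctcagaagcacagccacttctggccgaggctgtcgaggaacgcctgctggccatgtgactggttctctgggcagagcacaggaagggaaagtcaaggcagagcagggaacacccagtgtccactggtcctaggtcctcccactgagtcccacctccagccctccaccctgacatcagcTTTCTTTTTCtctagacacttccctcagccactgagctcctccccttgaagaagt

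The Lgals9 window held 1 match to GAAANNGAAA, with its first base 55 bases before the start, and the windows of Cd274 and Pdcd1lg2 held none. Tnfrsf14 was the other gene of the set with a match, 64 bases before its start. Of 32851 RefSeq promoter windows of the same length, 2.98% held GAAANNGAAA and 7.02% held TTCNNNGAA, which was in none of the 9 windows. A match describes letters only and was not set against any binding data. The windows also differed in base composition, from 44.8% G and C in Havcr2 to 77.6% in Cd276.

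Libraries held 31743404 to 36438248 counts, so 1 count is worth 0.028 to 0.0314 CPM (counts scaled by library size with TMM factors), and a level below 1 CPM means few reads. Rod photoreceptor transcripts, which mark retina, summed to 35389 CPM or more in every library over 6 genes. Knockout 3 and controls 2 and 3 were rich in lens transcripts (749 to 2395 CPM over 7 genes, against 2.26 to 17.2 CPM in the other 5 libraries). Haemoglobin transcripts were lower in all knockouts (1.59 to 4.03 CPM over 4 genes) than in all controls (9.86 to 14.1 CPM). Of 13 microglia and macrophage genes 7 rose at an edgeR adjusted p under 0.05, as 1.2% of all genes tested did. The sum over all 13 was 179 to 229 CPM in the knockouts and 102 to 151 CPM in the controls. Xist was abundant in all 8 libraries (2732 to 5152 CPM), and the Y-linked Eif2s3y had 0 to 6 reads, but the Y-linked Kdm5d had 452 to 963 reads in the knockouts and 0 to 4 in the controls. The part of that further difference between the groups in any value below was not tested. Bulk counts cannot tell more cells of a type from more RNA per cell.

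Across the 16861 genes tested, 430 changed at an edgeR adjusted p under 0.05, which is 2.55%, and 3 of the 9 tested genes of the set were among them. Pdcd1lg2 and Lgals9 rose (1.2% of all genes did), and Cd274, the targeted gene, fell (1.35% did). Knockouts and controls did not overlap in CPM for the same 3 genes, nor for 11% of all genes. The median log2 fold change, knockout over control, was 0.34 over the 9 genes and -0.0011 over all genes. The set was chosen with these results known, so its counts do not stand as support for a shared change. When knockout 3 and controls 2 and 3, the lens-rich libraries, were left out, 1 of the 9 passed, Cd274, of 15 genes in all.

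**Figure D1:**
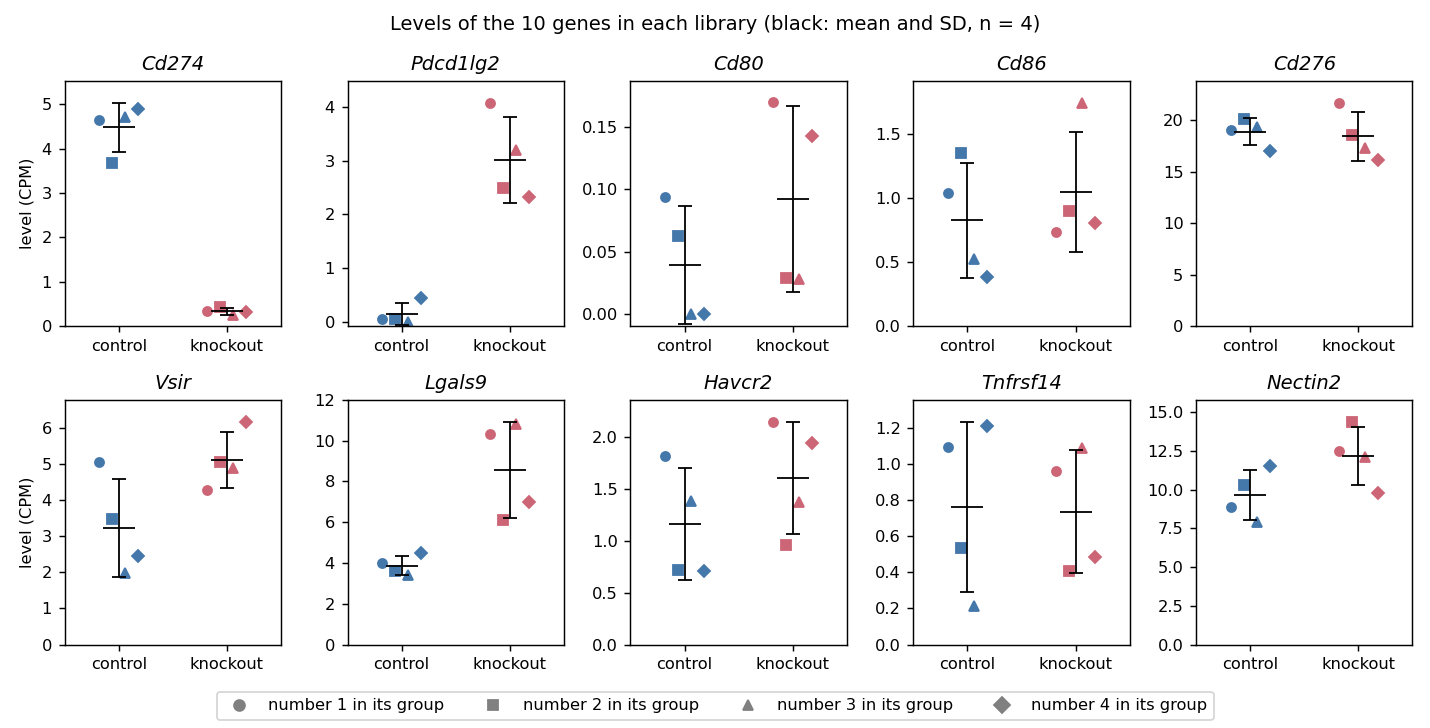
Level in CPM (linear axes, each with its own range) of the 10 genes in the 4 control (blue) and 4 knockout (red) libraries, with the mean and SD in black; symbols give the number in the library's title. Cd274, Pdcd1lg2 and Lgals9 are the tested genes whose groups do not overlap.

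Cd274 was low in every library labelled knockout, which is the check of the labels. Its level was 0.339, 0.435, 0.252 and 0.315 CPM in knockouts 1 to 4 and 4.64, 3.68, 4.71 and 4.88 CPM in controls 1 to 4. The knockout mean was 7.48% of the control mean, and the 9 to 15 reads per knockout library show that transcript was not wholly lost, and the labels do not say which part was deleted. On the log2 scale the knockout differed from the control by -3.73 (95% interval -4.31 to -3.14, edgeR adjusted p = 1.57e-05).

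Pdcd1lg2, which encodes PD-L2, was nearly silent in the controls and present in every knockout. Its level was 4.07, 2.49, 3.19 and 2.32 CPM in knockouts 1 to 4, against 0.0627, 0.0628, 0 and 0.444 CPM in controls 1 to 4. Control 4, with 15 reads, held most of the 19 control reads. The lowest knockout, with 81 reads, still stood above every control. Its log2 fold change was 4.35 (95% interval 2.99 to 5.70, SE 0.63, edgeR adjusted p = 0.00446). That value was 6.06 without control 4, and 3.52 with an adjusted p of 0.0769 without the 3 lens-rich libraries.

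The ligand that made up the PD-1 ligand transcripts differed between the groups, while the summed level overlapped. Levels of different genes were compared as FPKM, which divides by gene length. Summed FPKM of both ligands was 0.974 ± 0.250 in the knockouts, with a range of 0.762 to 1.32, and 1.13 ± 0.170 in the controls, with a range of 0.900 to 1.31 (SD, n = 4 each). Pdcd1lg2 made up 93.5%, 87.3%, 93.8% and 89.8% of this sum in knockouts 1 to 4. In controls 1 to 4 it made up 1.59%, 2.01%, 0% and 9.82%. For control 3, with 0 of 153 reads of the pair from Pdcd1lg2, the exact 95% binomial interval (Clopper-Pearson) of the read share reached 2.38%, and for control 4 it was 4.74% to 13.4% around 8.33%. These intervals cover counting error only. In CPM, which does not allow for length, the sum was 3.35 ± 0.781 in the knockouts and 4.62 ± 0.656 in the controls. The shift is described, not tested, because the knockout itself lowers 1 of its terms. Dendritic cells and macrophages are known makers of PD-L2. Of 6 dendritic cell genes 3 were tested and none passed. The sum of the 6 was 8.74 to 9.45 CPM in the knockouts and 7.33 to 9.71 CPM in the controls. Of the 3 tested, Zbtb46, a transcription factor, supplied most of that sum and had a log2 fold change of 0.25 (edgeR adjusted p = 0.371). Its groups (6.09 to 8.03 CPM in the knockouts, 5.03 to 5.96 CPM in the controls) did not overlap, as for 11% of all genes. Flt3 (-0.41, edgeR adjusted p = 0.527) and Itgax (-0.14, edgeR adjusted p = 0.89) went the other way. Xcr1 and Cd209a had 0 to 4 reads per library. The microglia and macrophage list, given above, was higher in every knockout. The part of either list in the Pdcd1lg2 value was not tested. An effect of the altered allele on the neighbouring gene and a response to missing PD-L1 protein cannot be told apart here.

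**Figure D2:**
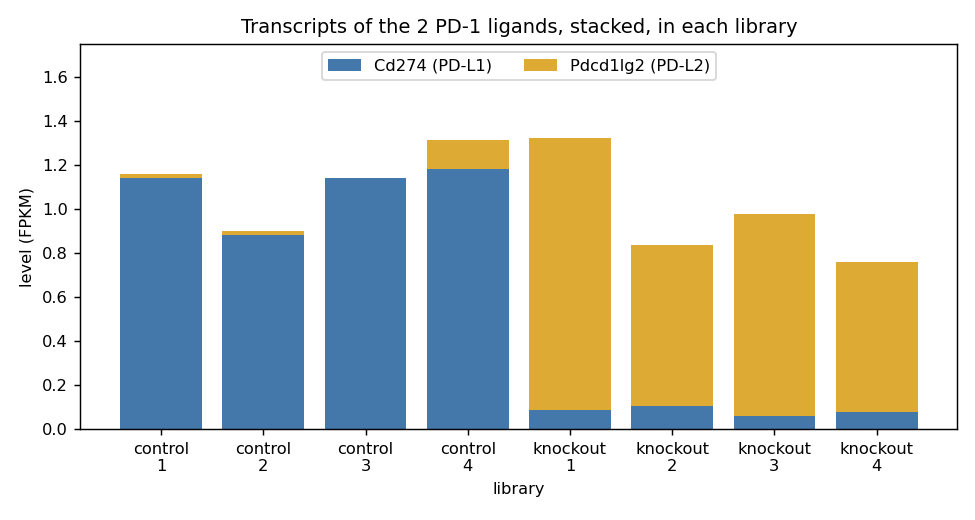
Stacked FPKM of Cd274 (blue) and Pdcd1lg2 (yellow) in each of the 8 libraries. The summed height runs from 0.762 to 1.32 in the knockouts and from 0.900 to 1.31 in the controls, with Pdcd1lg2 at 87.3% or more of the sum in each knockout and at most 9.82% in each control.

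The ligands of CD28 and CTLA-4, an activating and an inhibiting receptor of T cells, were scarce. Cd80 had 6, 1, 1 and 5 reads in knockouts 1 to 4 and 3, 2, 0 and 0 reads in controls 1 to 4, too few to test. Cd86, the ligand carried by resting myeloid cells, was at 0.735, 0.898, 1.74 and 0.801 CPM in knockouts 1 to 4 and at 1.03, 1.35, 0.524 and 0.385 CPM in controls 1 to 4. The groups overlapped, and knockout 3 alone was above every control. Cd86 had a log2 fold change of 0.34 (95% interval -0.64 to 1.32, SE 0.45, edgeR adjusted p = 0.693), and of -0.018 without knockout 3. The interval leaves room for a change of more than 1 log2 unit upward, so a shift of that size was not excluded at this depth and spread.

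Among the other B7 relatives, Cd276 (B7-H3) had the highest mean FPKM of the set in both groups and the narrowest interval. In CPM it was at 21.7, 18.6, 17.3 and 16.2 CPM in knockouts 1 to 4 and at 19.1, 20.1, 19.3 and 17.0 CPM in controls 1 to 4, so that the groups overlapped almost fully. Its log2 fold change was -0.036 (95% interval -0.29 to 0.22, SE 0.12, edgeR adjusted p = 0.89). Vsir encodes VISTA, a ligand and receptor of myeloid and T cells. Its level was 4.30, 5.07, 4.90 and 6.18 CPM in knockouts 1 to 4 and 5.05, 3.49, 1.97 and 2.46 CPM in controls 1 to 4. All 4 knockouts were above the control mean, but control 1 was within the knockout range. The log2 fold change of Vsir was 0.66 (SE 0.27, 95% interval 0.08 to 1.24), and it did not pass after adjustment (edgeR adjusted p = 0.186).

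Lgals9 encodes galectin-9, a secreted and surface lectin that binds TIM-3 among other partners, and it was the gene of the set that rose away from chromosome 19. Its level was 10.3, 6.11, 10.8 and 7.00 CPM in knockouts 1 to 4, against 4.01, 3.61, 3.39 and 4.47 CPM in controls 1 to 4. Knockouts 1 and 3 were high and knockouts 2 and 4 lower, with each above every control. Lgals9 had a log2 fold change of 1.15 (95% interval 0.70 to 1.59, SE 0.21, edgeR adjusted p = 0.0139), or 2.21-fold. The call was lost without knockout 3 (log2 fold change 1.01, adjusted p = 0.0645), without control 3 (1.08, adjusted p = 0.0586) and without the 3 lens-rich libraries (0.89, adjusted p = 0.478).

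Havcr2, the TIM-3 receptor gene and known to be made by microglia, showed no such separation. It was at 2.15, 0.956, 1.37 and 1.94 CPM in knockouts 1 to 4 and at 1.82, 0.723, 1.39 and 0.710 CPM in controls 1 to 4. Havcr2 had a log2 fold change of 0.47 (95% interval -0.36 to 1.30, SE 0.39, edgeR adjusted p = 0.499). Whether Lgals9 and Havcr2 differed in their change was not tested. The microglia and macrophage list, whose sum was higher in every knockout than in every control, had a median log2 fold change of 0.86, against 0.34 for Cd86, 0.66 for Vsir, 0.47 for Havcr2 and 1.15 for Lgals9, and the list's part in these values was not tested. None of its 13 genes was at 0 in any library.

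Tnfrsf14 encodes HVEM, which inhibits through BTLA and activates through LIGHT. It had 34, 14, 39 and 17 reads in knockouts 1 to 4 and 35, 17, 7 and 41 reads in controls 1 to 4. The values fell in a high and a low pair in each group, and the log2 fold change was -0.055 (95% interval -1.18 to 1.07, SE 0.52, edgeR adjusted p = 0.965). Nectin2, an adhesion molecule and a ligand of PVRIG, was at 12.5, 14.4, 12.1 and 9.81 CPM in knockouts 1 to 4 and at 8.87, 10.3, 7.92 and 11.5 CPM in controls 1 to 4. Of the knockouts 3 were above every control, and knockout 4 was not. The log2 fold change of Nectin2 was 0.34 (SE 0.16, 95% interval -0.002 to 0.68), and it did not pass (edgeR adjusted p = 0.238).

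**Figure D3:**
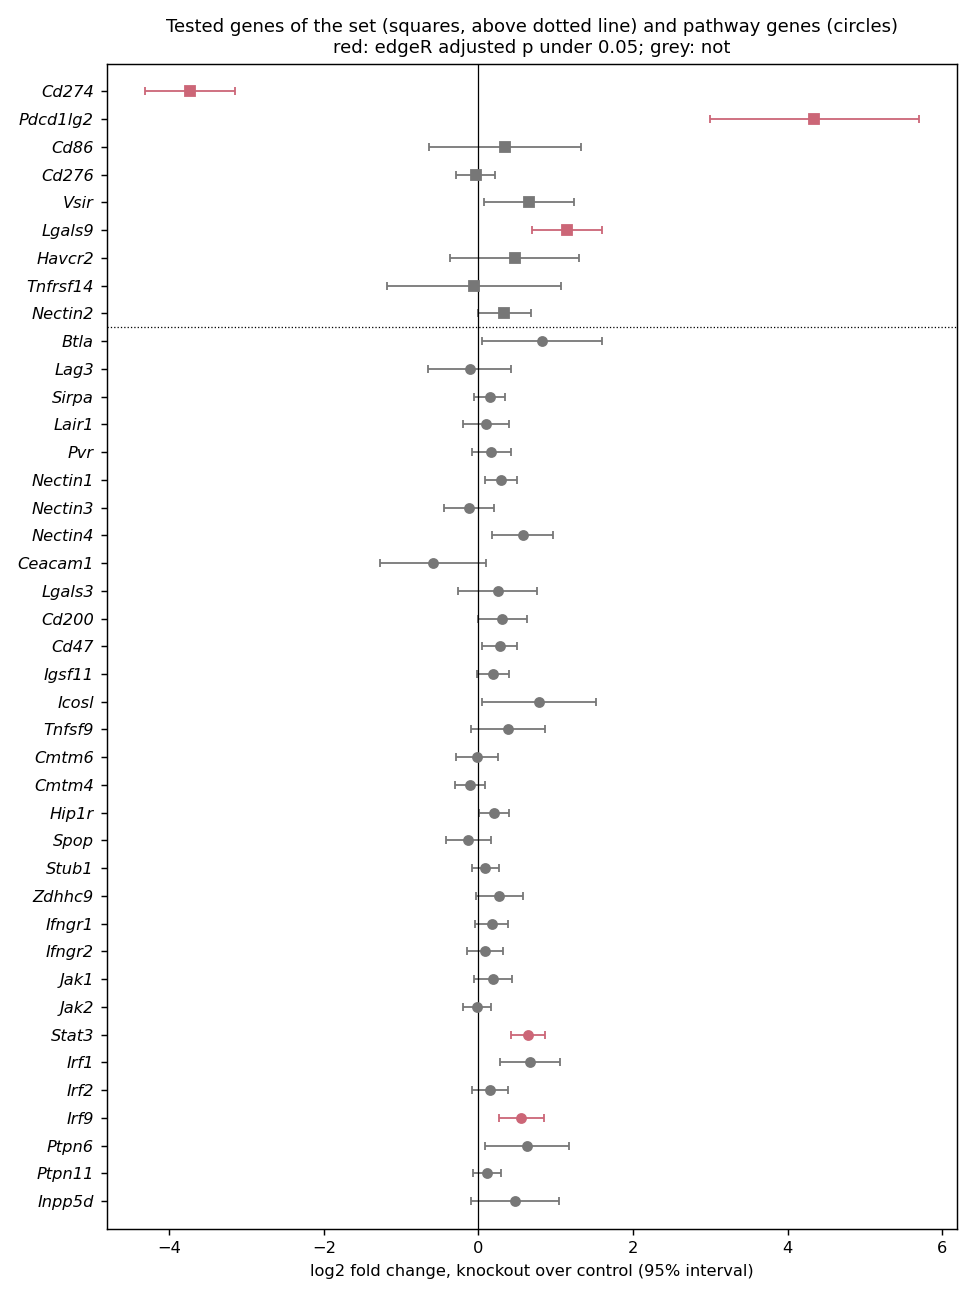
Log2 fold change, knockout over control, with its 95% interval for the 9 tested genes of the set (squares) and 32 tested genes of the pathway lists (circles); red marks an edgeR adjusted p under 0.05. Pdcd1lg2 at 4.35, Lgals9 at 1.15, Stat3 and Irf9 are red on the right, Cd274 at -3.73 on the left.

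By FPKM, the order in the controls was Cd276 (5.86 ± 0.399), Nectin2 (2.78 ± 0.450), Lgals9 (2.42 ± 0.306), Cd274 (1.09 ± 0.138), Vsir (0.665 ± 0.284), Havcr2 (0.423 ± 0.201), Cd86 (0.289 ± 0.156), Tnfrsf14 (0.154 ± 0.0955), Pdcd1lg2 (0.0414 ± 0.0590) and Cd80 (0.0107 ± 0.0129; SD, n = 4). Neighbours in this order overlapped in range except that Cd276 stood above Nectin2 and Lgals9 above Cd274. In the knockouts Cd276 (5.81 ± 0.868) and Lgals9 (5.44 ± 1.51) overlapped at the top. Pdcd1lg2 (0.892 ± 0.252) stood between Vsir (1.06 ± 0.158) and Havcr2 (0.596 ± 0.213), overlapping both. Cd274 (0.0825 ± 0.0190) came ninth, above Cd80 and overlapping Tnfrsf14 (0.150 ± 0.0691). Cd276, at the 52.5th percentile of all tested genes by mean FPKM, was thus at a middling level for this tissue, and Tnfrsf14 was at the 5.5th.

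Scatter between libraries of 1 group set how small a change could be seen, and for most genes it was more than counting alone gives. The coefficient of variation (SD over mean CPM) of Tnfrsf14 in the controls was 61.6%, where counting noise at its mean count is 20.0%. For Cd86 the pair was 54.5% and 19.4%, and for Vsir 42.0% and 9.77%. Lgals9 varied by 12.3% in the controls and 27.5% in the knockouts, where counting gives 8.91% and 5.75%. Cd276 was the steadiest in the controls at 7.04%, with 4.04% from counting. Cd274 in the knockouts varied by 22.6%, which is below the 29.2% of counting.

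The listed receptors of immune cells, some of which bind ligands outside the set, were mostly at the limit of detection. Of 14 listed receptor genes 13 were in the table and 4 were tested, and none passed. The 9 untested ones, among them Pdcd1, Ctla4, Cd28, Tigit and Pvrig, had 0 to 17 reads per library. Pdcd1, the gene of PD-1, had 5, 3, 17 and 3 reads in knockouts 1 to 4 and 5, 2, 2 and 2 in controls 1 to 4. Markers of T and NK cells were as scarce apart from Lck, with 10 genes summing to 1.28 to 2.46 CPM in the knockouts and 1.04 to 1.76 CPM in the controls. Per library, Cd3e had 0 to 5 reads, Cd3d 0 or 1 and Cd8a 6 to 16. Lck was at 0.724 to 1.57 CPM in the knockouts and 0.414 to 1.26 CPM in the controls (log2 fold change 0.33, edgeR adjusted p = 0.671). Btla, the HVEM receptor, was at 1.16, 0.724, 0.728 and 1.00 CPM in knockouts 1 to 4 and 0.596, 0.377, 0.585 and 0.474 CPM in controls 1 to 4. Its groups did not overlap, but its log2 fold change of 0.83 (SE 0.36) did not pass (edgeR adjusted p = 0.212). Sirpa, the receptor of CD47, was at 0.14 (SE 0.09, adjusted p = 0.389).

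Further ligands and the proteins that handle PD-L1 did not pass in any case. Of 13 genes listed as further co-inhibitory ligands 9 were tested, none passed and 7 had positive values. The smallest p-values were those of Nectin4 (log2 fold change 0.57, SE 0.18, edgeR adjusted p = 0.107) and Nectin1 (0.29, SE 0.10, adjusted p = 0.114), cell adhesion molecules related to Nectin2. The 4 untested ones, Vtcn1, Tnfsf14, Fgl1 and Btn2a2, had 0 to 9 reads. Tnfsf14 encodes LIGHT, through which HVEM activates, so the list is not of inhibitory ligands alone. Of 6 co-stimulatory ligands 5 were in the table and 2 were tested: Icosl, the ligand of ICOS, at 0.78 (SE 0.34, adjusted p = 0.211) and Tnfsf9, the ligand of 4-1BB, at 0.38 (SE 0.22, adjusted p = 0.335). The other 3, Cd40, Cd70 and Tnfsf18, had 0 to 6 reads. Of 6 genes whose products regulate PD-L1 protein none passed, with Hip1r, which directs PD-L1 to the lysosome, at 0.20 (SE 0.09, adjusted p = 0.221) and Zdhhc9, a palmitoyltransferase, at 0.27 (SE 0.14, adjusted p = 0.276). Of 3 phosphatases recruited by inhibitory receptors none passed, with Ptpn6 (SHP-1) at 0.63 (SE 0.25, adjusted p = 0.18) and Inpp5d (SHIP1) at 0.47 (SE 0.26, adjusted p = 0.315).

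Of the pathway lists, only that of the interferon route known to drive Cd274 held genes that rose, and most of its genes did not pass. Of 8 tested, 2 rose (1.2% of all genes did), none fell, 6 did not pass and 7 were positive, with a list median of 0.18. Irf1, among those that did not pass, had a log2 fold change of 0.67 (SE 0.18, edgeR adjusted p = 0.0671). Its groups (9.42 to 13.3 CPM in the knockouts, 5.47 to 8.41 CPM in the controls) did not overlap, as for 11% of all genes. Stat3, a transcription factor activated by cytokine receptors, was at 129, 109, 136 and 117 CPM in knockouts 1 to 4, against 82.2, 73.4, 69.7 and 90.7 CPM in controls 1 to 4. Every knockout was above every control, and Stat3 rose by 0.64 on the log2 scale (SE 0.10, edgeR adjusted p = 0.00784). Irf9, the DNA-binding subunit of the factor that type I interferon activates, was at 59.8, 35.6, 45.0 and 40.6 CPM in knockouts 1 to 4, against 30.9, 30.3, 32.0 and 30.1 CPM in controls 1 to 4. Its value was 0.55 (SE 0.13, adjusted p = 0.0494), which sits at the threshold. Irf9 lost its call without any library except knockout 2 or control 4 (adjusted p up to 0.147), and with all 8 libraries kept it missed the threshold in 7 of 11 other settings (adjusted p of 0.0503 to 0.0884). Stat3 kept its call without any 1 of the 8 (up to 0.0406). Both lost it without the 3 lens-rich libraries (adjusted p of 0.323 and 0.531).

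Within the knockouts, the libraries that were high for Lgals9 were also those high for Stat3 and Irf9. Lgals9, Stat3 and Irf9 each had knockouts 1 and 3 as the 2 highest, then knockout 4, then knockout 2. Pdcd1lg2 too was highest in knockouts 1 and 3. The summed microglia and macrophage list was in another order, with 229 CPM in knockout 4, 226 in knockout 3, 199 in knockout 1 and 179 in knockout 2. Of the 5 genes of the pigment epithelium list 1 rose (1.2% of all genes did). This list summed to 119 CPM in knockout 1, 242 to 268 CPM in the other knockouts and 62.2 to 141 CPM in the controls. The part of either list in the order of Lgals9 was not tested. In the controls Lgals9 and Stat3 again shared their order, with control 4 highest and control 3 lowest. Irf9 did not share it there, being highest in control 3 (32.0 CPM) and lowest in control 4 (30.1 CPM). With 4 libraries per group this is a description of their order, and no relation was tested. The comparison was not planned, and Lgals9, Stat3 and Irf9 had each passed the test in these same libraries. Their shared order therefore does not stand as support for a link.

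**Figure D4:**
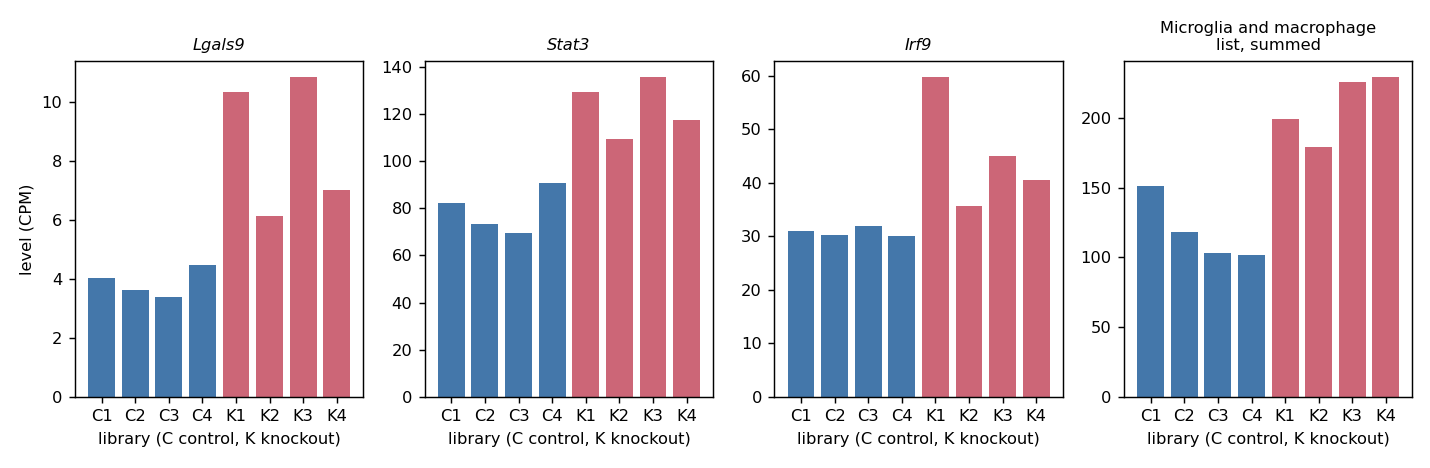
Level in CPM of Lgals9, Stat3, Irf9 and the summed list of 13 microglia and macrophage genes in each library (C, control, blue; K, knockout, red). Among the knockouts, K1 and K3 are the highest for the 3 genes, whereas K4 and K3 are the highest for the list.

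**Figure D5:**
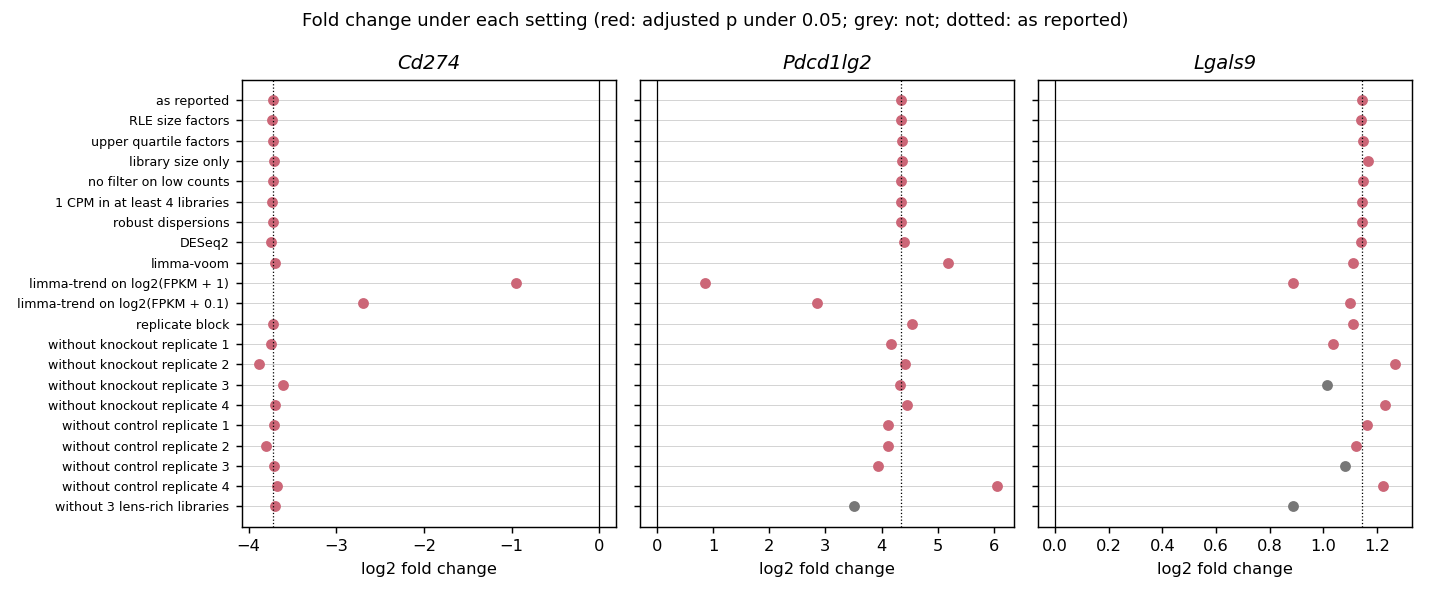
Log2 fold change, knockout over control, of Cd274, Pdcd1lg2 and Lgals9 as reported (top, dotted line) and under 20 other settings; red points passed an adjusted p of 0.05 and grey points did not. No point crosses 0; the grey points are Pdcd1lg2 without the lens-rich libraries and Lgals9 without knockout 3, control 3 or the lens-rich libraries.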

How the data were processed

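Per the submitters' processing notes, reads were handled with fastp, HISAT2 and HTSeq on mm10; for versions, annotation and strand setting, nothing is given in the sources used here. Whether reads of overlapping genes were kept apart is thus not known. The deposited table of raw read counts per gene was made by the authors. The deposited FPKM table holds the authors' length- and depth-scaled counts, and served for levels between genes. Counts were fitted with edgeR 4.0.16 in R 4.3.3: TMM scaling, filterByExpr (minimum count 10, minimum total 15), a quasi-likelihood test of knockout against control without covariates, and Benjamini-Hochberg adjustment over 16861 genes. SE is the absolute log2 fold change over the square root of F, and 95% intervals use the same SE with the model's degrees of freedom, which is rough for genes of few counts. The scripts were tested on simulated data. Totals of 31743404 to 36438248 counts per library set the depth. The 10 genes and the lists (6 pathway and 12 marker lists, 132 of 137 entries in the table) were chosen with earlier results of these data known. Named are the 10 genes, pathway genes that passed (or the 2 of smallest p where none did) and untested genes by their reads. The Pdcd1, Cd3e and Cd3d counts were chosen after their values were seen. Irf1 and the marker genes Cd8a, Lck, Zbtb46, Flt3, Itgax, Xist, Eif2s3y and Kdm5d were named outside this rule, with their values known. A listed gene is not reported here. Alternatives used DESeq2 1.42.0, limma 3.58.1, other scalings and filters, single libraries left out and a replicate block. RefSeq promoters of GRCm38.p6 were searched for motifs with Python 3.11.15.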

Additional observations from a re-analysis of the deposited data

Results flagged for a closer look

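Pdcd1lg2 in control 4, at 0.444 CPM (15 reads), stood far from the other controls, at 0 to 0.0628 CPM: its gap to the next control was 0.858 of the range of the 4, above the critical value of Dixon's test for 4 samples. Cd86 in knockout 3, at 1.74 CPM (62 reads), stood apart from the other knockouts, at 0.735 to 0.898 CPM, with a gap of 0.837 of the range. Over 20 groups examined (10 genes in both groups), 2 stood out in this way, and for normally distributed values chance alone marks about 1 in 20. Levels from few reads need not be distributed so, and the rate for these values was not tested.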

How the results depend on the processing

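The number of genes of the set past the threshold was 3 as reported and 3 under all 11 settings that kept the 8 libraries, 2 to 3 with 1 library left out, and 1 without the 3 lens-rich libraries, an alternative chosen after the data had been seen. The number over all genes was 430 as reported (47.2% higher), 690 without a filter on low counts, 1392 with DESeq2, 228 with limma-trend on log2(FPKM + 1), 228 with the replicate block, 108 to 3209 with 1 library left out, and 15 without the lens-rich libraries; the cause was not tested. Among the fits with 1 library left out, the lowest was without knockout 3 and the highest without control 4. The number was 204 and 216 without knockouts 2 and 4, and 162, 143 and 130 without controls 1, 2 and 3. The share higher was 61.2% with library size only, 65.8% on log2(FPKM + 1) and 64.5% on log2(FPKM + 0.1). Cd274 kept its call in all 20 alternatives, Pdcd1lg2 in 19 and Lgals9 in 17. On log2(FPKM + 1) the size shrank by construction, to -0.94 for Cd274 and 0.85 for Pdcd1lg2. Signs turned for genes that never passed: Tnfrsf14 was at 0.0965 with limma-voom, 0.0201 on log2(FPKM + 0.1), 0.00982 with the replicate block and -0.369 to 0.26 with 1 library left out (0.137, 0.0994, 0.167 and 0.26 without knockout 2, knockout 4, control 1 and control 4). Cd276 was at -0.129 to 0.0236 with 1 library left out (0.0236 without knockout 4, 0.0029 without control 2) and 0.0662 without the lens-rich libraries, and Cd86 at -0.018 to 0.696 with 1 library left out, the lowest without knockout 3. Same-numbered libraries did not deviate together in every pair (correlations over genes of 0.21, -0.041, 0.12 and 0.0063), and not every library correlated best with its own number. The replicate block left 3 genes of the set past the threshold. Cd80 and most listed receptors had too few reads to be tested.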
